A study of Mus musculus with 8 samples.

Results

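The 39 genes described here encode the secreted ligands of the TGF-beta superfamily, their receptors and co-receptors, and the proteins that capture the ligands or dampen the response. They were chosen by name, leaving out the intracellular Smad, Ski and Skil genes, and each was followed over its locus, which is the GRCm38 span of the gene plus 10 kb on either side. All 39 were found in the RefSeq gene table, which gives 21627 protein-coding loci on chromosomes 1 to 19 and X. The measurement was ChIP-seq for methylated lysine 4 of histone H3 (H3K4me), made with an antibody whose catalogue entry is for the monomethylated form, in the cortex of E15.5 mouse embryos. Control embryos (WT) had the genotype Prdm16 flox/flox and mutant embryos (cKO) had the genotype Emx1Ires-Cre; Prdm16flox/flox, so both groups carried floxed Prdm16 and the mutants also carried Cre. Prdm16 encodes a zinc-finger transcriptional regulator of cortical progenitors, and the comparison asks where the mark differs when it is deleted. Each genotype had 2 libraries, with 1 list of broad peaks apiece, and the labels do not say whether they came from separate embryos or from pools. The p-values below therefore measure the spread between these libraries, which may be technical.

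Emx1 drives Cre in dorsal telencephalic progenitors, whose descendants inherit the deletion. The chromatin came from a lysate of the whole cortex, which can also hold interneurons that migrate in, vessels, microglia and meninges, and cells outside the Emx1 lineage keep their Prdm16 alleles. In such a lysate, fewer cells of a type and less of the mark per cell cannot be told apart.

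TGF-beta superfamily ligands are secreted dimers that bring type I and type II serine/threonine kinase receptors together at the cell surface. The type II receptor phosphorylates the type I receptor, which phosphorylates SMAD proteins that then enter the nucleus and act on target genes. TGF-beta, activin and nodal signal mainly through Smad2 and Smad3, whereas BMPs signal mainly through Smad1, Smad5 and Smad9. Extracellular antagonists such as noggin hold ligands away from receptors, and membrane decoys and intracellular inhibitors, several of them induced by the pathway, limit it further. In the developing forebrain, BMPs from the dorsal midline and the cortical hem pattern the adjacent cortex and choroid plexus. H3K4 monomethylation is a mark of enhancers and of the flanks of active promoters.

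The lists held 75314 and 66476 peaks in WT replicates 1 and 2, and 80519 and 82683 in cKO replicates 1 and 2, covering 130 and 114 Mb in WT and 148 and 166 Mb in cKO. Both cKO lists covered more of the genome than either WT list, WT replicate 2 covered the least, and the read depth behind each is unknown because the files hold no counts. Genes of cortical progenitors and neurons (14 genes, such as Pax6, Sox2 and Neurod2) had a median of 62.6% ± 2.38 of the locus under peaks (SD, n = 4 libraries). The same median was 9.30% ± 1.38 for 10 genes of the cortical hem and choroid plexus, 9.38% ± 1.76 for 8 meningeal genes, 5.47% ± 1.79 for 8 genes of vessels and 3.63% ± 0.625 for 8 microglial genes. Folr1 of the choroid plexus, Tie1 of endothelium and Trem2 of microglia had no peak base in any library, each the only such gene of its list. Peak bases were found in all 4 libraries at 8 of the 10 hem and choroid plexus genes and at all 8 meningeal genes. The same held for 6 of the 8 vessel genes and 6 of the 8 microglial genes.

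The bases just before the gene start are printed for 6 of the genes because the results turn on whether H3K4me peaks reached the start, and were picked as examples with the peaks known. The start windows (250 bases before to 50 after the start) of Inhba, Gdf7 and Bmp4 held peak bases in all 4 libraries, that of Gdf10 in 3, that of Acvr2b in 1 and that of Acvr1 in none. The starts used for Inhba and Acvr2b lie inside the gene spans, which begin at chr13:16004256 and chr9:119401583. Each sequence gives the 250 bases before the start, 5′ to 3′ on the gene's strand, from RefSeq on GRCm38.p6, with CpG dinucleotides in capitals. They lie at chr13:16011601-16011850 on the plus strand, chr12:8301955-8302204 on the minus strand, chr14:46390670-46390919 on the minus strand, chr14:33923337-33923586 on the plus strand, chr9:119401928-119402177 on the plus strand and chr2:58566829-58567078 on the minus strand.
Inhba: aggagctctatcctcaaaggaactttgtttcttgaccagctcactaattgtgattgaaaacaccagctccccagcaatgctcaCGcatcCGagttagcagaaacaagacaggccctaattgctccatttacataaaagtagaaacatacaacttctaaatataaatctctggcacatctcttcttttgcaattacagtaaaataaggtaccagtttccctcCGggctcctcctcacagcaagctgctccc
Gdf7: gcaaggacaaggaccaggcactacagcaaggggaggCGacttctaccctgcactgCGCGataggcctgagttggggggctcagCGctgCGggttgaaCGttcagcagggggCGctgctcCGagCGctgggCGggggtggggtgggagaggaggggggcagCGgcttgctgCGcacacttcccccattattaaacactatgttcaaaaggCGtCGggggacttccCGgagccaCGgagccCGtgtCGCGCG
Bmp4: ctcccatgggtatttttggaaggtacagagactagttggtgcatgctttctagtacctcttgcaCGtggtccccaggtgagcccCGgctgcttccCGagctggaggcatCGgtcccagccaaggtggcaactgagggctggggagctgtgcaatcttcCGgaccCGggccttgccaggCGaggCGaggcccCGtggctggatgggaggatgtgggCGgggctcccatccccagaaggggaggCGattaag
Gdf10: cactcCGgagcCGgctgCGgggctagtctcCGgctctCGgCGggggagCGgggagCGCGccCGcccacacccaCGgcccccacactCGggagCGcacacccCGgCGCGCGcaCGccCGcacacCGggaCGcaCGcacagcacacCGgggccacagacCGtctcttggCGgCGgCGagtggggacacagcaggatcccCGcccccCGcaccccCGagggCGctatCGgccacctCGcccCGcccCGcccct
Acvr2b: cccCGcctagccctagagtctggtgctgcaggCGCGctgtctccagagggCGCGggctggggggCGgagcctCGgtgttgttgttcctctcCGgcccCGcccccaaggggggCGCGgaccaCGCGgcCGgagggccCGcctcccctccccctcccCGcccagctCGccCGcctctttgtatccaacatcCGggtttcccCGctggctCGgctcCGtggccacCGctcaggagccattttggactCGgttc
Acvr1: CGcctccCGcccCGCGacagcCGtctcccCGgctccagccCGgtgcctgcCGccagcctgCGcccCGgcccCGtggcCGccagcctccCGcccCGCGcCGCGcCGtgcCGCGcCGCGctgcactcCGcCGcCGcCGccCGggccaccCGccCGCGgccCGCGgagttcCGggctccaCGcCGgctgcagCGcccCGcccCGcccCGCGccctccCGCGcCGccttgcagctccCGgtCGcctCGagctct
The capitals are sparsest in Inhba and densest in Acvr1. There were 3 CpG in the 250 bases of Inhba, 20 in Gdf7, 11 in Bmp4, 35 in Gdf10, 24 in Acvr2b and 46 in Acvr1.

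H3K4me peaks lay over nearly every gene of the pathway. Peak bases were found in all 4 libraries at 37 of the 39 loci, the exceptions being Eng and Bmp5, and at 15211 of the 21627 coding loci. No library had a peak base at 4859 of the coding loci, against 0 of the 39. Shares of all coding loci given below count these bare loci, which cannot differ between the genotypes. Over the 39, the median covered share of a locus was 12.8% ± 1.76 (SD, n = 4 libraries), with 11.9% and 11.1% in WT replicates 1 and 2 and 13.0% and 15.2% in cKO replicates 1 and 2. Over all protein-coding loci the median was 5.70% ± 1.32. With the lists reduced to equal covered length, the median of the 39 was 11.0% in WT and 10.2% in cKO, so the order of the genotypes turned round. The median of the 39 was above that of all loci in each library, and well under that of the cortical progenitor and neuron genes.

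**Figure D1:**
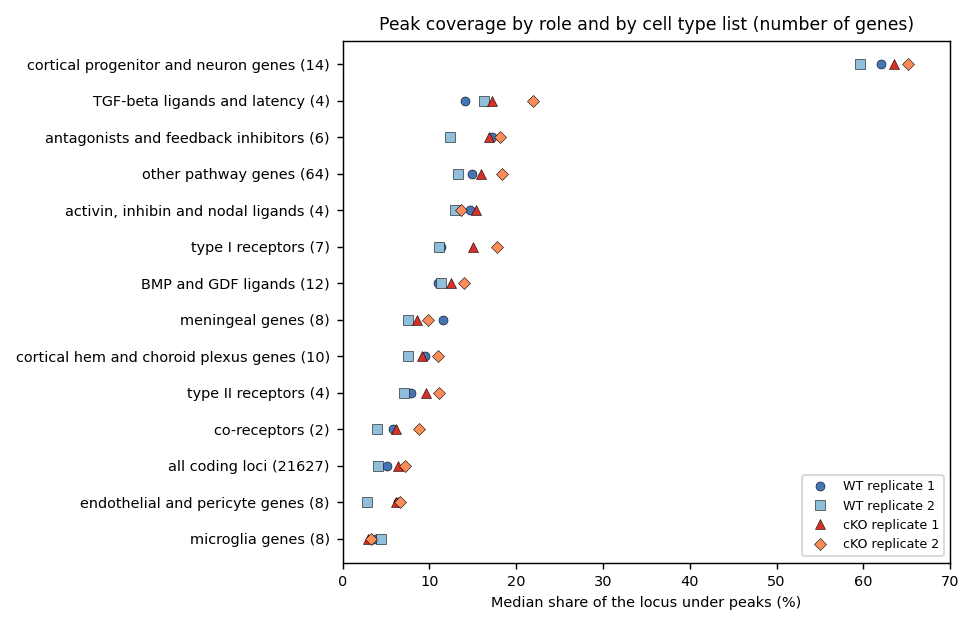
Median share of the locus under H3K4me peaks (%) for each role group of the pathway, for the other pathway genes, for all coding loci and for the cell type lists, with 1 point per library (blue WT, red and orange cKO) and the number of genes in brackets. TGF-beta ligands and latency (17.4% over the 4 libraries) and antagonists (16.2%) stand highest among the roles, and co-receptors (6.20%) stand lowest, near all coding loci (5.70%).

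By role, the highest medians were those of the TGF-beta ligands with their latency protein (17.4% ± 3.28, 4 genes) and of the antagonists and feedback inhibitors (16.2% ± 2.57, 6 genes). Activin, inhibin and nodal ligands had 14.2% ± 1.04 (4 genes), type I receptors 13.8% ± 3.17 (7 genes) and BMP and GDF ligands 12.2% ± 1.34 (12 genes). Type II receptors (8.92% ± 1.79, 4 genes) and co-receptors (6.20% ± 1.99, 2 genes) were least covered. Genes of 1 role spread more widely than these medians did, from 1.13% to 24.0% among BMP and GDF ligands, 5.14% to 29.2% among type I receptors and 7.43% to 60.4% among antagonists.

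**Figure D2:**
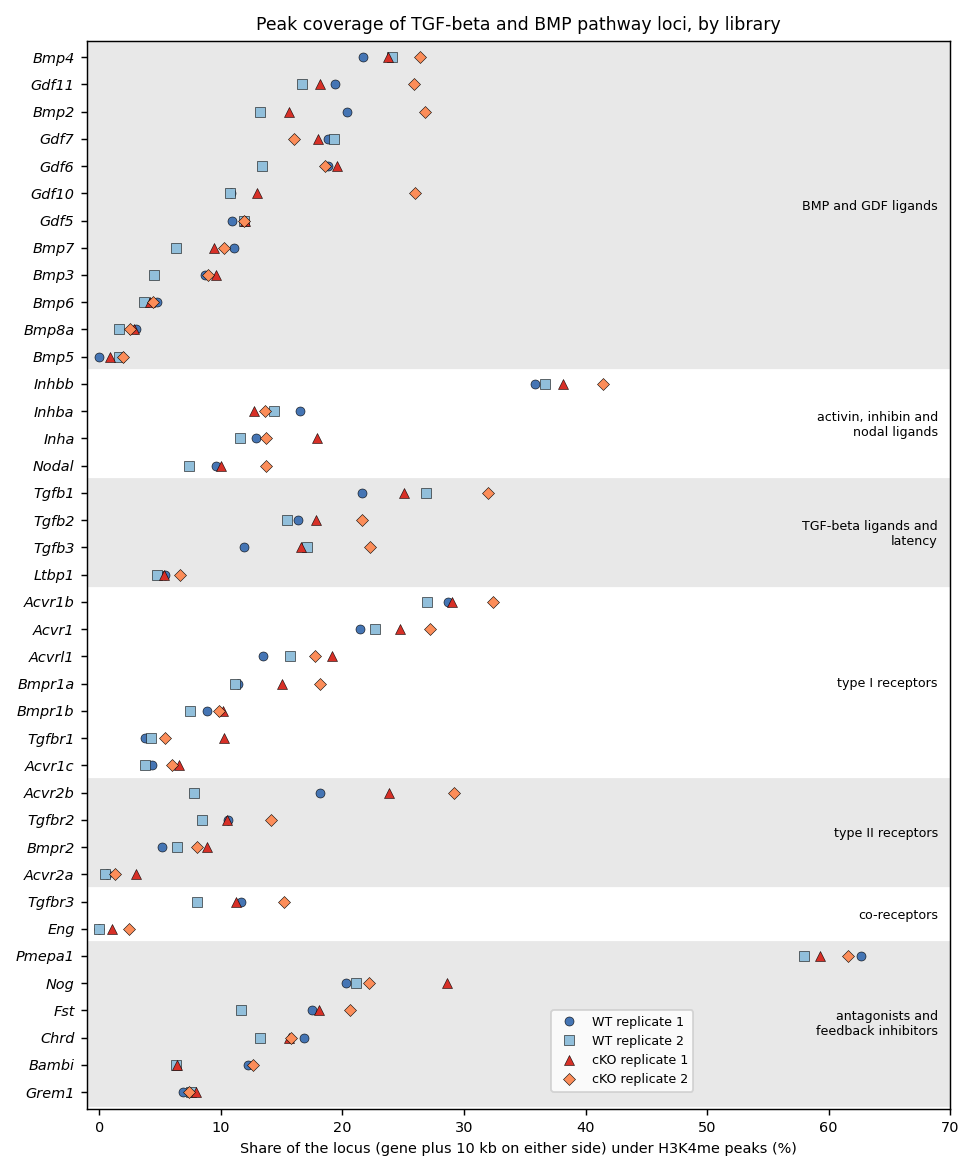
Share of each locus under H3K4me peaks (%), with 1 symbol per library (circles and squares WT, triangles and diamonds cKO) and genes grouped by role. Pmepa1 sits apart near 60% in every library, Acvr2b and Gdf10 have the widest scatter between libraries, and Eng, Bmp5 and Acvr2a lie near 0.

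Pmepa1, a membrane protein that sequesters receptor-activated SMADs and is itself a TGF-beta target, was the most covered locus. Peaks covered 45.3 and 41.9 kb in WT against 42.9 and 44.5 kb in cKO, each pair in replicate order here and below, of a locus of 72.3 kb (gene at chr2:173224458-173276731). That is 60.4% ± 2.14 of the locus (SD, n = 4), more than at 99.6% of all coding loci. A single stretch of 39579 bases, chr2:173235382-173274960, lay under peaks in all 4 libraries, inside the gene. The body of the gene was 81.1% covered and its flanks 6.26%, so the mark at this locus belonged to the gene body.

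Among the other antagonists, noggin (Nog), which binds BMPs directly and is encoded by a short gene at chr11:89300638-89302559, had 23.1% ± 3.78 of its locus under peaks. Its coverage was 4.45 and 4.64 kb in WT against 6.28 and 4.86 kb in cKO, with cKO replicate 1 the highest. Follistatin (Fst), which captures activins, had 4.68 and 3.11 kb in WT against 4.83 and 5.5 kb in cKO. At both genes the cKO libraries had more peak bases than either WT library, as they did at 44.2% of all coding loci. Chordin (Chrd), a BMP-binding antagonist of the early embryo, had 5.22 and 4.08 kb in WT against 4.84 and 4.89 kb in cKO, and the pseudoreceptor Bambi had 3.59 and 1.85 kb in WT against 1.87 and 3.72 kb in cKO, with the genotypes interleaved at both. Gremlin (Grem1), another BMP antagonist, was the least covered of the role with 2.07 and 2.26 kb in WT against 2.38 and 2.2 kb in cKO.

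The BMP and GDF ligands ranged from 1.13% to 24.0% of the locus. Bmp4 (chr14:46383525-46390669), a ligand of the dorsal midline, was the most covered at 24.0% ± 1.93, with 5.88 and 6.54 kb in WT against 6.44 and 7.16 kb in cKO. Gdf11, a ligand that restrains neurogenesis in several tissues, had 20.01% ± 4.06, with 6.04 and 5.21 kb in WT against 5.65 and 8.07 kb in cKO. Bmp2 had 19.0% ± 5.98, with 6.25 and 4.06 kb in WT against 4.8 and 8.23 kb in cKO. In these last 2 loci cKO replicate 2 was the highest library while cKO replicate 1 lay between the WT values.

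Other ligands of the group were covered as follows. Gdf7 (chr12:8297918-8301954), the roof plate ligand of dorsal interneuron specification, had 18.0% ± 1.45 of its locus under peaks, and Gdf6, an ocular and skeletal ligand, had 17.6% ± 2.85. Gdf10, which in the adult brain has been tied to axon growth after stroke, had 15.1% ± 7.3, and the joint ligand Gdf5 had 11.7% ± 0.537. Bmp7, made in the meninges and hem, had 9.27% ± 2.08, and Bmp3, an atypical ligand that opposes BMP signalling, had 7.93% ± 2.32. Bmp6 had 4.25% ± 0.475 of a long locus (175 kb), and Bmp8a had 2.5% ± 0.626. Bmp5 was the thinnest, with 0 and 2.39 kb in WT against 1.32 and 2.87 kb in cKO, so WT replicate 1 held no peak there while WT replicate 2 held more than cKO replicate 1.

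Inhbb, which encodes the beta B subunit of activins and inhibins, was the most covered ligand gene of all 3 ligand groups at 38.0% ± 2.46, above 97.1% of all coding loci. Its peaks came to 9.6 and 9.82 kb in WT against 10.2 and 11.1 kb in cKO and fell in 3 stretches shared by all 4 libraries, the longest of 4495 bases across an end of the gene. Inhba, which encodes the beta A subunit, had 14.3% ± 1.61, all of it inside the gene since its flanks held no peak base. Inha, the inhibin alpha subunit, had 14.0% ± 2.74, with 3.0 and 2.7 kb in WT against 4.17 and 3.19 kb in cKO. Nodal, the ligand of mesoderm and left-right patterning, had the fewest bases of the role, 2.62 and 2.02 kb in WT against 2.75 and 3.76 kb in cKO.

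Tgfb1 (chr7:25687002-25705077) had 26.4% ± 4.33 of its locus under peaks, with 8.22 and 10.2 kb in WT against 9.56 and 12.2 kb in cKO. Tgfb2, the isoform made widely in the embryo, had 17.8% ± 2.71, and Tgfb3 had 16.9% ± 4.22 and the fewest bases of the role, 5.05 and 7.21 kb in WT against 7.0 and 9.41 kb in cKO. Ltbp1 binds latent TGF-beta to the matrix, and its locus of 407 kb had a share of only 5.51% ± 0.796 although it held 13 stretches shared by all 4 libraries. The Tgfb1 locus also contains Tmem91, B9d2 and Ccdc97, and a peak there cannot be assigned to one gene. Such overlap is common here, as 18 of the 39 loci contain at least 1 other coding gene.

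Acvr1b (ALK4, the type I receptor for activin and nodal) was the most covered receptor locus at 29.2% ± 2.26, with 17.1 and 16.1 kb in WT against 17.3 and 19.3 kb in cKO. Acvr1 (ALK2, a BMP type I receptor) had 24.0% ± 2.52, with 30.1 and 31.9 kb in WT against 34.7 and 38.2 kb in cKO, in 11 shared stretches. The endothelial receptor Acvrl1 (ALK1) had 16.5% ± 2.48, and the BMP receptors Bmpr1a and Bmpr1b had 13.9% ± 3.33 and 9.08% ± 1.23. Acvr1c (ALK7) had 5.14% ± 1.32. Tgfbr1 (ALK5), the TGF-beta type I receptor, had the fewest bases of the role, 3.06 and 3.46 kb in WT against 8.38 and 4.44 kb in cKO, so cKO replicate 1 stood above the other 3 libraries. At all 7 type I receptor loci, both cKO libraries had more covered bases than either WT library, against 44.2% of all coding loci, bare loci included. Their summed bases in cKO were 1.26 times those in WT, where the ratio for all loci was 1.29. With the median of each library subtracted, 4 of the 7 were lower in cKO. Their median log2 difference was then −0.067, beside −0.038 over all loci.

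Type II receptors differed widely in coverage. Acvr2b, an activin receptor, had 19.7% ± 9.13, Tgfbr2, the TGF-beta type II receptor, had 10.9% ± 2.36, and Bmpr2, the BMP type II receptor, had 7.1% ± 1.66. Acvr2a, the paralog of Acvr2b, was nearly bare at 1.34% ± 1.16. Among co-receptors, betaglycan (Tgfbr3), which presents TGF-beta2 to its receptors, had 11.5% ± 2.94, and the endothelial co-receptor endoglin (Eng) was the least covered locus of the 39 with 0 and 0 kb in WT against 0.594 and 1.39 kb in cKO.

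Most of the intervals in these loci were found in every library. The 4 lists together made 212 merged peak intervals in the 39 loci, of which 130 (61.3%) held a peak in all 4 libraries, 28 (13.2%) in 3, 23 (10.8%) in 2 and 31 (14.6%) in 1. Over the genome these shares were 57.1%, 12.8%, 11.9% and 18.1% of 93831 intervals. Intervals in member loci with a peak in all 4 libraries had a median length of 2485 bases, and those with a peak in 1 library 406 bases. Gene bodies were more covered than the flanks at 29 of the 39 loci, a count that was not taken over all coding loci. Of the 10 others, Tgfb1, Inha, Bmpr1a, Tgfbr1 and Tgfbr2 had flank shares of 31.5%, 15.8%, 19.7%, 11.9% and 17.0%.

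Fold enrichment, the authors' own value for each peak, was compared by the highest peak of each locus, which stood high in every list at 4 loci. The highest peak at Acvr1b reached a fold of 6.33 ± 0.900 (SD, n = 4), that at Acvr1 6.25 ± 0.603, that at Nodal 6.10 ± 0.562 and that at Pmepa1 6.05 ± 0.554. Each of these exceeded more than 90% of the peaks of its own list in all 4 libraries. This sets the highest of several peaks against single peaks, and the share of all coding loci that would pass was not computed. The Acvr1b peak (chr15:101159407-101166423 in WT replicate 1) lay before the gene, which begins at chr15:101174072. It reached past the edge of the locus in every library. At Nodal such a peak stood in a locus covered over 10.2% ± 2.65, and at Pmepa1 in the most covered locus of the 39.

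No gene of the pathway differed between the genotypes after correction for multiple testing. Covered bases per locus were taken as log2(bases + 500), the median of each library was subtracted, and cKO was compared with WT by limma over the 14937 loci with a mean of at least 1000 covered bases, 38 of the 39 among them (Eng was too thinly covered). Called at an adjusted p under 0.05 were 0 of the 38, as were 0.0% of all loci in either direction. At an unadjusted p under 0.05, 1 gene was higher in cKO (Acvr2b) and 3 were lower (Pmepa1, Inhba and Gdf7), against 5.56% and 4.43% of all loci. Centred values of the genotypes did not overlap at 4 genes with higher values in cKO (Acvr2a, Acvr2b, Bmpr1a and Acvr1c), against 17.3% of all loci. They did not overlap at 11 with lower values (Bmp4, Bmp6, Gdf5, Gdf7, Inhba, Inhbb, Ltbp1, Acvr1b, Chrd, Grem1 and Pmepa1), against 27.2% of all loci. For Inhbb and Acvr1b centring turned the order round: both cKO libraries had more covered bases than either WT library. Without centring their differences were 0.13 and 0.14. The smallest adjusted p of the 38 was 0.407.

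Centring matters to the sign of these differences. Without it, the median log2 difference was 0.35 over all loci and 0.27 over the 38 genes, of which 36 were above 0. With it, the median was −0.11 over the 38 genes, 13 above 0 and 25 below, and −0.038 over all loci, 45.0% of them above 0. Counted in bases, both cKO libraries exceeded both WT libraries at 19 of the 39 loci (48.7%, against 44.2% of all coding loci). Both lay under both WT libraries at 2 loci, Inhba and Gdf7 (5.13%, against 1.12% of all coding loci). All coding loci include 4859 without a peak base in any library, which could pass neither count, whereas all 39 loci held peaks. These shares are therefore not like for like, and 48.7% cannot be read as above that of covered loci. The bases covered over all 39 loci came to 359 and 321 kb in WT against 394 and 441 kb in cKO, a ratio of means of 1.23 where that of all loci was 1.29. The 14 cortical progenitor and neuron genes had a median centred difference of −0.27 with all 14 below 0, and their covered bases summed to 1.08 times the WT value in cKO. The part of coverage level in the members' differences was not tested.

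**Figure D3:**
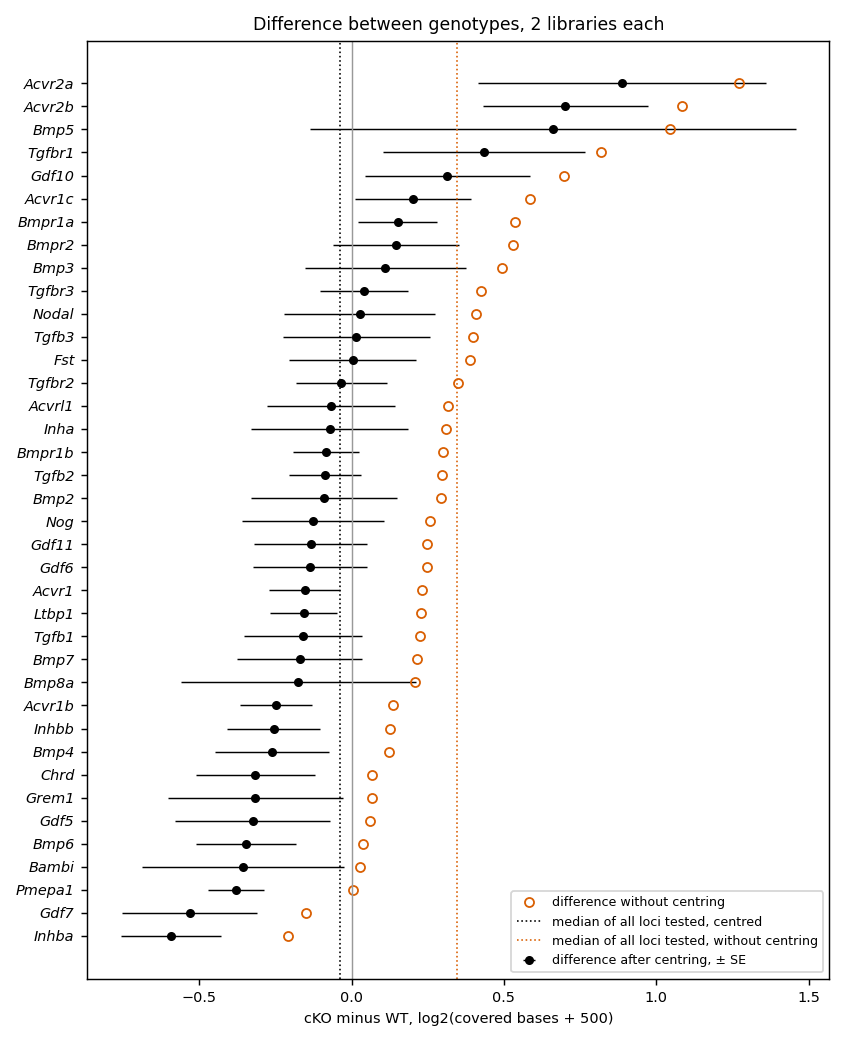
Difference between cKO and WT in log2(covered bases + 500) for the 38 loci tested, as filled points with bars of ±1 SE after centring and as open points without centring, 2 libraries per genotype. After centring the points run from −0.59 (Inhba) to 0.89 (Acvr2a), and without it only Inhba (−0.21) and Gdf7 (−0.15) lie below 0.

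Inhba had 1 of the 2 loci with fewer covered bases in both mutant libraries. Peaks covered 7.83 and 6.82 kb in WT against 6.04 and 6.47 kb in cKO, or 15% ± 1.51 in WT against 13.2% ± 0.651 in cKO (SD, n = 2 each), so the genotypes did not overlap. The centred difference was −0.59 ± 0.16 (SE; limma, unadjusted p = 0.00698, adjusted p = 0.435), and −0.21 without centring. It was −0.33 with the lists reduced to equal covered length and −0.072 (limma adjusted p = 0.955) with peaks of a −log10 q-value of at least 3. The difference lay in 1 of 3 stretches of the gene. That stretch, chr13:16016082-16018949, had 2.62 and 2.62 kb covered in WT and 1.49 and 0.791 kb in cKO. The stretch chr13:16009943-16012845 lay over the start used here, where the sequence printed above lies. It had 2.72 and 2.08 kb in WT against 2.32 and 2.66 kb in cKO, and the genotypes overlapped there. That start is inside the gene span, whose outer end at chr13:16004256 was under no peak in any library. At the third stretch, chr13:16021316-16024339, WT had 2.49 and 2.12 kb and cKO 2.23 and 3.02 kb, which also overlapped.

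Gdf7 was the other. Its peaks came to 4.52 and 4.63 kb in WT against 4.33 and 3.84 kb in cKO, or 19.0% ± 0.324 in WT against 17.0% ± 1.44 in cKO, and the centred difference was −0.53 ± 0.22 (SE; limma, unadjusted p = 0.0421, adjusted p = 0.489), with −0.15 without centring and −1.40 at equal covered length. A stretch across the end of the gene, chr12:8297747-8300093, held 2.35 and 2.16 kb in WT against 1.97 and 1.78 kb in cKO. The stretch over the start, chr12:8301322-8302629, went the other way with 1.03 and 1.03 kb in WT against 1.27 and 1.19 kb in cKO. A stretch beyond the gene, chr12:8290741-8292305, had 1.15 and 1.44 kb in WT against 1.09 and 0.864 kb in cKO. The lower bases in cKO thus came from the far end of the gene and its flank, not from the start. The Gdf7 locus also contains part of Ldah. Limma's unadjusted p for Gdf7 was 0.165 without WT replicate 2 and 0.197 without cKO replicate 2.

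Pmepa1 had the smallest p of the 38, and its covered bases overlapped between the genotypes. The centred difference was −0.38 ± 0.09 (SE; limma, unadjusted p = 0.00336, adjusted p = 0.407), while without centring it was 0.0049 and at equal covered length −0.091. The 4 values given above interleave between the genotypes, with shares of 60.3% ± 3.32 in WT against 60.5% ± 1.64 in cKO. Bmp4 (−0.26 ± 0.19), Bmp6 (−0.35 ± 0.16), Gdf5 (−0.32 ± 0.25), Chrd (−0.32 ± 0.19) and Grem1 (−0.32 ± 0.29) were alike in this: their centred values were lower in both cKO libraries, and their differences without centring lay between 0.036 and 0.12. None of these 5 had an unadjusted p under 0.05. Bmp6 had 8.32 and 6.37 kb in WT against 7.22 and 7.75 kb in cKO, and Gdf5 had 2.65 and 2.9 kb in WT against 2.92 and 2.9 kb in cKO. For Bmp4, leaving out WT replicate 1 gave −0.44 and leaving out WT replicate 2 gave −0.088.

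Acvr2b differed in the other direction, by an amount that depended on which WT library was used. Peaks covered 11.0 and 4.74 kb in WT against 14.4 and 17.7 kb in cKO, or 13.0% ± 7.32 in WT against 26.5% ± 3.81 in cKO, so WT replicate 2 was far below the other 3 libraries and both cKO values were above both WT values. The centred difference was 0.70 ± 0.27 (SE; limma, unadjusted p = 0.0321, adjusted p = 0.479). At equal covered length it was 0.41, without WT replicate 2 it was 0.24, and without WT replicate 1 it was 1.17 with a limma adjusted p of 0.0252. The widest scatter was inside the gene, in the stretch chr9:119416998-119422979, with 2.58 and 0.41 kb in WT against 5.98 and 5.54 kb in cKO. The stretch chr9:119403612-119409635 had 2.57 and 1.14 kb in WT, then 2.78 kb in cKO replicate 1 and 6.02 kb in cKO replicate 2. A further stretch, chr9:119424437-119426917, overlapped between the genotypes, with 2.38 and 1.98 kb in WT against 2.26 and 2.45 kb in cKO. The locus also holds parts of Xylb and Exog.

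Acvr2a had the largest centred difference of the 38, 0.89 ± 0.47 (SE; limma, unadjusted p = 0.0969, adjusted p = 0.547), on very few bases. Without cKO replicate 2 it was 1.47, and without cKO replicate 1 the locus fell under the filter. Peaks covered 0.701 and 0.510 kb in WT against 3.27 and 1.38 kb in cKO, and the only stretch present in all libraries, chr2:48815724-48817588, had 0.339 and 0.51 kb in WT against 1.86 and 0.943 kb in cKO. Bmpr1a (12.8 and 12.5 kb in WT against 16.9 and 20.4 kb in cKO) and Acvr1c (4.74 and 4.16 kb in WT against 7.19 and 6.63 kb in cKO) also had centred values without overlap, with differences of 0.15 ± 0.13 and 0.20 ± 0.19, neither at an unadjusted p under 0.05. As a group, the 4 type II receptor loci had 1.62 times the WT bases in cKO, where the ratio for all loci was 1.29. That group includes Acvr2b, which had only 4.74 kb in WT replicate 2. The 7 type I receptor loci had 1.26 times. The ratio was 1.19 for BMP and GDF ligands, 1.22 for TGF-beta ligands and latency, 1.07 for activin, inhibin and nodal ligands and 1.05 for antagonists. Median centred differences were 0.42 for type II receptors, −0.067 for type I receptors, −0.15 for BMP and GDF ligands, −0.17 for activin, inhibin and nodal ligands, −0.12 for TGF-beta ligands and latency and −0.32 for antagonists. Leaving aside Acvr2b, whose difference was 0.24 without WT replicate 2, the type II group keeps Bmpr2 (0.15), Tgfbr2 (−0.03) and Acvr2a.

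**Figure D4:**
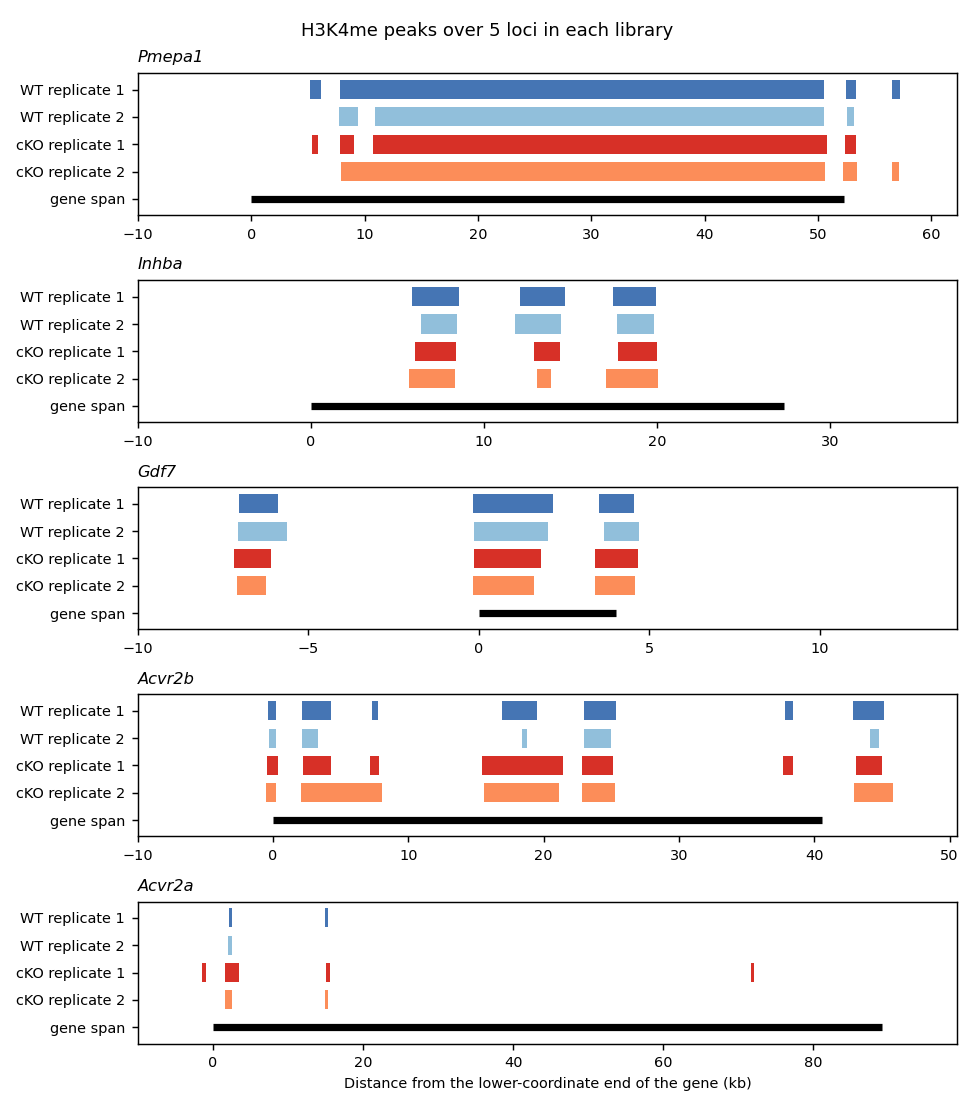
Peaks called in each library (coloured bars, 1 row per library) over Pmepa1, Inhba, Gdf7, Acvr2b and Acvr2a with 10 kb on either side, and the gene span in black, against distance from the lower-coordinate end of the gene (kb). Pmepa1 is under 1 near-continuous block in every row, the middle block of Inhba is shorter in both cKO rows, and the 2 widest blocks inside Acvr2b are longest in the cKO rows and shortest in WT replicate 2.

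Regions found in 1 genotype alone were few. An interval of at least 200 bases was counted as cKO-only if both cKO libraries covered it and neither WT library had a peak base in it, and as WT-only in the reverse case. There were 5 cKO-only regions, in 4 of the 39 loci, where 14.0% of all coding loci held one. There was 1 WT-only region, where 1.59% of all coding loci held one. The balance depended on how much was called: with the lists reduced to equal covered length there were 2 cKO-only and 13 WT-only regions in the 39 loci. The share of all coding loci holding such regions was not computed for the reduced lists, so these counts cannot be read as particular to the 39.

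Betaglycan (Tgfbr3) held 2 of the cKO-only regions, both inside the gene. The first, chr5:107174249-107174644 (396 bases), had folds of 4.12 and 4.64 in cKO replicates 1 and 2 and −log10 q-values of 4.07 and 6.30, and the nearest WT peaks were 2.21 and 2.28 kb away. The second, chr5:107200450-107201099 (650 bases), had folds of 3.65 and 3.47, and the nearest WT peaks were 20.9 and 22.9 kb away. Despite them, the whole locus had 23.6 and 16.3 kb in WT against 22.8 and 30.9 kb in cKO, and WT replicate 1 exceeded cKO replicate 1.

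Bmpr2 held a region of 374 bases inside the gene, chr1:59833749-59834122, with folds of 3.85 and 3.59. Its locus as a whole had 6.86 and 8.55 kb in WT against 11.8 and 10.7 kb in cKO, more in either cKO library than in either WT library. In Gdf10 the region, chr14:33926698-33927245 (548 bases), was a peak of its own in cKO replicate 1 and part of a peak of 8555 bases in cKO replicate 2. Gdf10 had 3.58 and 3.53 kb in WT against 4.27 and 8.55 kb in cKO, and its centred difference of 0.31 ± 0.27 became −0.067 without cKO replicate 2. That locus also holds Gdf2, another BMP gene.

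Eng held a region of 480 bases inside the gene, chr2:32667924-32668403, with folds of 3.23 and 3.94 in cKO, and the nearest WT peaks were 24.3 and 24.8 kb away. It was the only interval of the Eng locus seen in both cKO libraries. Eng is an endothelial gene, and the 8 vessel genes summed to 32.4 and 24.1 kb of covered bases in WT and 34.3 and 41.1 kb in cKO. Their summed bases in cKO were 1.33 times those in WT, where the ratio for all loci was 1.29. Among them 4 had more bases in both cKO libraries than in either WT library (50%, against 44.2% of all coding loci), Tie1 was at 0 in every library and Tek at 0 in all but cKO replicate 2. The part of vessel cells in the Eng region was not tested. The WT-only region, chr13:38509808-38510215 (408 bases), lay in the flank of Bmp6, 9.49 kb beyond the gene, with folds of 3.24 and 2.89, and the nearest cKO peaks were 16.1 and 15.9 kb away.

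Gene starts could be examined for 27 of the 39 genes, those in the RefSeq promoter table, with 32 start windows in all. Those not matched were Bmp2, Bmp3, Bmp7, Gdf5, Gdf6, Tgfb3, Acvrl1, Tgfbr3, Nog, Fst, Bambi and Pmepa1. Peak bases were found in 16 and 15 of the 32 windows in WT and in 19 and 21 in cKO (50%, 46.9%, 59.4% and 65.6%). Over 21044 windows of 17273 coding genes the shares were 34.4%, 29.1%, 39.8% and 44.4%. All 4 libraries had a peak base in 14 member windows (43.8%, against 22.9% of all windows), and none had one in 10 (31.3%, against 49.5%). At the start itself 52.3% ± 7.38 of member starts and 35.2% ± 6.60 of all starts lay under a peak (SD, n = 4).

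**Figure D5:**
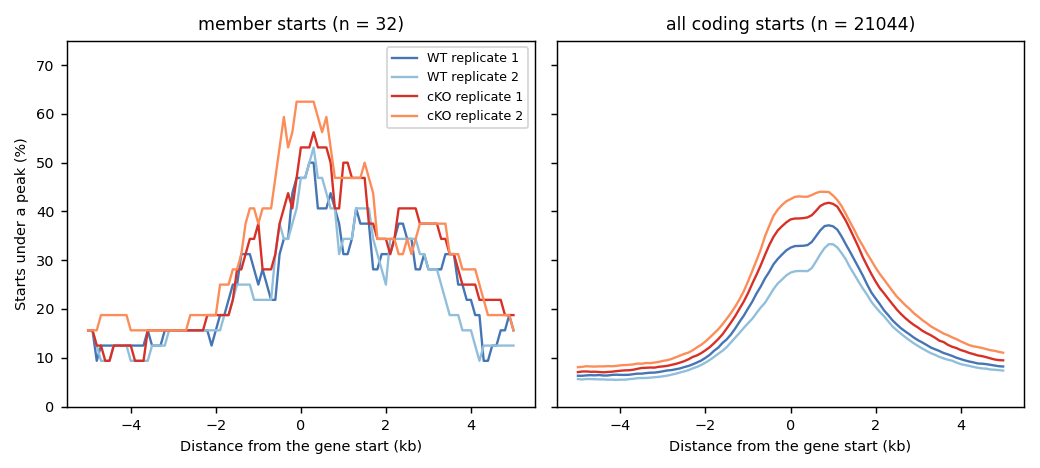
Percent of gene starts under an H3K4me peak at each distance from the start (kb, negative before the gene), for the starts of the pathway's genes (left) and all coding starts (right), with 1 line per library. At the start itself member starts lie above all coding starts in every library, with 46.9% to 62.5% against 27.5% to 42.5%, whereas some points farther out lie below.

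Both secreted proteins and receptors included covered and bare starts. Genes with several starts in the table were counted by the start found in most libraries. Of 16 genes for ligands, latency protein or antagonists, 10 had a start window with peak bases in all 4 libraries: Bmp4, Bmp6, Bmp8a, Gdf7, Inhba, Tgfb1, Tgfb2, Ltbp1, Chrd and Grem1. Inhbb, Nodal, Gdf10 and Gdf11 had them in some libraries, and Bmp5 and Inha in none. Of 10 receptor genes, Acvr1c, Bmpr1b and Tgfbr2 had peak bases in all 4 libraries, Acvr1b and Acvr2b in some, and Acvr1, Acvr2a, Bmpr1a, Bmpr2 and Tgfbr1 in none. Ltbp1 and Acvr1c owe their place to an internal start. At the outer start Ltbp1 had no peak base in any library and Acvr1c had them in cKO alone. The windows of Inhba, Tgfb2, Chrd, Inha, Bmpr1b, Bmpr1a and Acvr2b also lay inside the gene span. For these genes the outer end of the span had no window and was not counted. The difference between the kinds was not tested, since the genes are not replicates.

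The bare receptor starts lay at varied distances from the nearest peak. At Acvr1 the nearest peak lay 547 and 613 bases from the start in WT and 591 and 512 in cKO, and at Bmpr1a 842 and 1206 bases in WT and 934 and 797 in cKO. At Acvr2a it lay 2153 and 2017 bases away in WT and 848 and 1648 in cKO, and at Bmpr2 1574 and 2100 in WT and 2119 and 2771 in cKO. Tgfbr1 had peaks 783 to 1188 bases from its outer start and 8856 to 28016 bases from its internal one. Those of Acvr1 were thus the nearest and the internal start of Tgfbr1 the farthest. The Acvr2b window, reached in 1 library, lies inside the gene span, which begins at chr9:119401583. The nearest peak lay 362 and 386 bases from its start site in WT and 243 and 346 in cKO. The window's edge was reached by 8 bases in cKO replicate 1. A stretch across the outer end of Acvr2b, chr9:119401058-119401935, held 0.600 and 0.493 kb in WT against 0.796 and 0.775 kb in cKO. Of the 32 windows, 28 in WT replicate 1, 26 in WT replicate 2 and 28 in each cKO library had a peak within 2 kb (87.5%, 81.3%, 87.5% and 87.5%, against 62.3%, 58.5%, 64.6% and 65.2% of all windows). Of the windows with partial coverage, 1 split by genotype: the window of Acvr1c at its outer start, chr2:58357709-58358008, was bare in both WT libraries and covered over all its 300 bases in both cKO libraries. The Gdf10 window was covered over all its 300 bases in WT replicate 2 and both cKO libraries and bare in WT replicate 1, and those of Acvr1b, Gdf11 and Nodal were reached in cKO replicate 2 alone.

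Windows that held peaks in every library had the lowest median CpG ratio. The ratio of observed to expected CpG had a median of 0.491 in the 14 windows with peak bases in all 4 libraries, 0.787 in the 8 with peak bases in some and 0.772 in the 10 with none. Single windows crossed these medians: those of Eng (0.202), Inha (0.222) and Bmp5 (0.284) were bare and poor in CpG, and those of Chrd (0.800), Grem1 (0.792) and Gdf7 (0.766) held peaks in all 4. The class with peaks in every library includes overlapping windows of Bmpr1b (0.258 and 0.291) and internal starts of Acvr1c (0.105) and Ltbp1 (0.375). Ratios by class were not computed over all coding windows. The GC content of the member classes, in the order above, was 60.5%, 75.3% and 61.3%. Member windows as a whole had a median GC content of 63.7% and a CpG ratio of 0.677, against 56.7% and 0.574 for all windows. Among the 6 sequences, GC content was 43.2% for Inhba, 66.0% for Gdf7, 63.2% for Bmp4, 78.8% for Gdf10, 72.8% for Acvr2b and 85.6% for Acvr1.

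SMAD-binding motifs were searched on both strands of the 300-base windows because several genes of the pathway are themselves SMAD targets. The motif GGCGCC, a GC-rich SMAD motif, occurred in 7 of 32 member windows (21.9%, against 16% of all windows): those of Acvr1b, Bmpr1a, Bmpr2, Chrd, Gdf10, Grem1 and Tgfbr1. The short SMAD box CAGAC occurred in 17 (53.1%, against 48.3%), and the palindrome GTCTAGAC in none (0.228% of all windows). The TATA box TATAAA occurred in 4 windows (12.5%, against 12.7%), those of Bmpr1b, Gdf11, Inhba and Tgfb2. None of these motifs contains another, and a match is a description of the letters only.

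The other genes of the pathway were more covered than these 39. A list of 64 further genes (SMADs, SMAD regulators, extracellular modulators and targets) had a median covered share of 15.6% ± 2.15. Smad7, the inhibitory SMAD, had 67.6% ± 4.73 of its locus covered, Smad6 36.1% ± 2.48, and Rgma, a BMP co-receptor and axon guidance protein, 69.7% ± 8.78. Of the 56 that could be tested, limma called 0 at an adjusted p under 0.05, as it called 0.0% of all loci. At an unadjusted p under 0.05, 2 were higher and 7 lower in cKO, against 5.56% and 4.43% of all loci. Their median centred difference was −0.096, with 23 above 0 (41.1%, against 45.0% of all loci) and 33 below. The largest differences were those of Bmp1 (0.93 ± 0.33), a protease that cleaves chordin, Ltbp2 (−0.79 ± 0.27), a matrix protein of the latent TGF-beta binding protein family, and Smurf1 (0.84 ± 0.21), a ubiquitin ligase for SMADs and BMP receptors. Smurf1 had 12.8 and 6.73 kb in WT against 20.3 and 24.6 kb in cKO, and like Acvr2b it was lowest in WT replicate 2.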

How the data were processed

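H3K4me ChIP-seq libraries (2 WT, 2 cKO) of whole embryonic cortex were used, and the 4 inputs were not analysed here. Per the labels' protocols, chromatin was native and cut with micrococcal nuclease. FastQC, cutadapt, Bowtie2 2.2.8 and MACS2 2.1.1 with build mm10 are named per the submitters' processing notes. Calling options, and whether inputs were used: not given in the sources used here. The authors deposited 1 broad peak list per library, so replicates were not pooled. Each deposited line holds a score, a fold enrichment (a ratio) and −log10 p-value and −log10 q-value. The files hold no counts, so depth is unknown, and a deeper or better enriched library gives more and wider peaks.

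Genes came from RefSeq tables on GRCm38.p6, the assembly mm10 represents, which give no exons. Peaks elsewhere than on chromosomes 1 to 19, X and Y were dropped (1 in each cKO list). Covered bases per locus (gene plus 10 kb either side) entered as log2(bases + 500) after loci averaging under 1000 bases were dropped, and the median of each library was subtracted. A log2 difference on this scale understates changes at thinly covered loci. The test of cKO against WT was limma 3.58.1 (R 4.3.3; trended eBayes, no block), with Benjamini-Hochberg adjustment over 14937 loci and a threshold of 0.05. Intervals were handled in Python 3.11.15 with numpy 2.4.6 and pandas 2.3.3, tested on simulated data (300 checks, 0 mismatches). On simulated data of 14847 loci limma found 3 of 50 true changes of 0.5 (log2) and 20 of 50 of 1. It found 47 of 50 of 2 and 50 of 50 of 4, with 3 false calls. The simulated spread was taken from values before centring, so it also held offsets between whole libraries that centring removes from the data. Alternatives covered the flank, pseudocount, filter, stricter peaks, equal peak numbers or covered length, centring, the variance model, the replicate block and each library left out.

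The members, their roles and the other lists were chosen with earlier results of these data known. Values in every library are given for the 10 most covered members, the 10 with the largest differences among those whose centred values do not overlap, those with a genotype-specific region, and the least covered of each role; up to 3 genes with the largest differences are given from the other pathway list. Smad6, Smad7, Rgma and the remaining members were named outside that rule, after their values were seen.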

Additional observations from a re-analysis of the deposited data

How the results depend on the processing

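No member passed the threshold under 16 of the 17 alternatives of the locus test; the exception was Acvr2b without WT replicate 1 (1.17, limma adjusted p 0.0252). Over all alternatives its difference ran from 0.24 to 1.17, that of Inhba from −0.64 to −0.072 (adjusted p 0.233 to 0.955), that of Gdf7 from −1.40 to −0.15, that of Acvr2a from 0.40 to 1.47 and that of Pmepa1 from −0.60 to 0.0049. Acvr2a had no value at equal covered length or without cKO replicate 1, where it fell under the filter. Loci called numbered 0 to 94 higher and 0 to 3 lower when 1 library was left out (94 without WT replicate 1, 29 without WT replicate 2), members called 0 to 1 and members at an unadjusted p under 0.05 4 to 6; this last count was 1 with stricter peaks and 2 with eBayes without a trend. The lone library left in a genotype is assumed to vary like the others.

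The median difference over members was −0.16 with 25 kb flanks, −0.058 at equal peak numbers, −0.012 at equal covered length and 0.27 without centring. Signs reversed without centring for Pmepa1 (0.0049), Bmp6 (0.036), Gdf5 (0.059), Grem1 (0.067), Chrd (0.068) and Bmp4 (0.12), with stricter peaks for Grem1 (0.59) and Bmp4 (0.57), at equal covered length for Chrd (0.030) and Bmp4 (0.13), and for Gdf10 without cKO replicate 2 (−0.067, up to 0.69 without cKO replicate 1); the cause was not tested.

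Median shares in WT and cKO were 15% and 19.5% with 5 kb flanks, 9.34% and 11.6% with 25 kb flanks and 17.8% and 23.3% for the gene span alone; stricter peaks gave 7.84% and 13.2%, and equal covered length 11.0% and 10.2%, the reverse order. There were 13 cKO-only regions with stricter peaks, 2 at equal covered length, 2 of at least 500 bases and 13 to 19 with 1 library left out. WT-only regions numbered 0 with 5 kb flanks, for the gene span alone, with stricter peaks and at 500 bases, 3 at equal peak numbers, 13 at equal covered length and 1 to 8 with 1 library left out. At equal covered length the balance of genotype-specific regions was thus turned round. Start windows with peak bases in every library numbered 9 with stricter peaks, an alternative chosen after seeing the data.

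Same-numbered libraries did not deviate together (correlation −0.0962 over 14937 loci), so the numbers are not shown to pair them. With the replicate block limma called 0 loci, and 3 members had an unadjusted p under 0.05 in place of 4. With 2 libraries per genotype and unknown depth, differences of 0.5 on the log2 scale were mostly missed in the simulation. Its spread was wider than that of the centred data, so the reach of the test on the data is not known exactly.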
